A study of Mus musculus with 6 samples.

Results

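The 10 genes described here encode heat shock chaperones and their closest partners: Hspa1a, Hspa1b, Hspa8, Hsph1, Dnajb1, Bag3, Hsp90aa1, Hsp90ab1, Hspd1 and Hspe1. They were chosen by symbol, and all 10 are among the 31053 genes of each of the 6 libraries. Single-nucleus RNA was counted with the 10x Genomics platform in nuclei sorted from mouse colon on DAPI, a DNA stain, and on INTACT, a nuclear tag, with the enteric nervous system as the labelled source. There was 1 Dexamethasone library, from mice given dexamethasone (a synthetic glucocorticoid) for 7 days. Restraint, given daily over 7 days, was the treatment of the 3 Stress libraries, and 2 Control libraries completed the set. All mice were labelled C57BL/6J and WT, and neither their age nor the promoter that drives the tag is given in the sources used here. Whether each library is a separate animal is not in the labels, and p-values therefore cover the spread from library to library, which may be technical.

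Chaperones bind unfolded or unstable proteins and help them reach or keep their shape. Hsp70 proteins work in a cycle driven by ATP, in which J-domain proteins bring clients and start hydrolysis and nucleotide exchange factors end the cycle. Hsp90 acts later on nearly folded clients, among them the glucocorticoid receptor, which it holds in the state that binds hormone. Under heat or proteotoxic stress the transcription factor HSF1 binds heat shock elements, inverted repeats of the bases GAA, and induces a subset of these genes.

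Hspa1a and Hspa1b, the stress-inducible Hsp70 genes, have almost the same sequence, so a read from 1 may also match the other and each value of either is uncertain. How such reads were counted, or whether they were left out, was not examined. Both have a single exon and lie on the minus strand of chromosome 17 (Hspa1a chr17:34969190-34972156, Hspa1b chr17:34956436-34959238, GENCODE M21 on GRCm38), 9951 bases apart. Their RefSeq promoter windows (GRCm38.p6, 250 bases before and 50 after the start) were identical at 296 of 300 bases. The differences, with the base of Hspa1a first and positions counted from 1 at the 5′ end of the window, were C44T, T47C, T249G and C276T. The 250 bases before each start are shown because they carry the heat shock element of the pair. Bag3 is shown beside them because it had the largest change in glia-like nuclei among the members tested there. Capitals mark 2 adjoining inverted units (GAANNTTC or TTCNNGAA, each its own reverse complement, so that 1 scan covers both strands). The coordinates are chr17:34972157-34972406 (minus strand), chr17:34959239-34959488 (minus strand) and chr7:128523333-128523582 (plus strand).
Hspa1a: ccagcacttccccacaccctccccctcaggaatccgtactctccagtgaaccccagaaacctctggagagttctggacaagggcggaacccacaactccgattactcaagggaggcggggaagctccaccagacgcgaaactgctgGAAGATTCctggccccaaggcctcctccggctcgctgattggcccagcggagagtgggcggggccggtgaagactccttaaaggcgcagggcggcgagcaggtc
Hspa1b: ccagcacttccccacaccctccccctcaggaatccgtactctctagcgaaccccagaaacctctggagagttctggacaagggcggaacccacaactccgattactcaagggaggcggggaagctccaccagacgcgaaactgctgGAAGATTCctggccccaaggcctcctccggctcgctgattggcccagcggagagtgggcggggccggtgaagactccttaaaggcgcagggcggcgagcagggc
Bag3: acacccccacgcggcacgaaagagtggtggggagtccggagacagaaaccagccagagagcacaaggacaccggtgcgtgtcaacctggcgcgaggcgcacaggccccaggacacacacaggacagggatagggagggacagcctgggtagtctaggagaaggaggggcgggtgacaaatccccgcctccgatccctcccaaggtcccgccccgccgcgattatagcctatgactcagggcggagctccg

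The same 8 bases stood 104 bases before the start of Hspa1a (chr17:34972253-34972260) and of Hspa1b (chr17:34959335-34959342). The 250 bases before Bag3 held no such element, and its window held 1 just past the start (chr7:128523625-128523632). The genes of the mitochondrial chaperonin, Hspd1 and Hspe1, lie head to head on chromosome 1 with gene spans that overlap by 112 bases. The 3-unit form is GAANNTTCNNGAA or TTCNNGAANNTTC, reverse complements of each other, each of which also holds the 2-unit form. The Hspe1 window and 1 of the 2 Hspd1 windows share a run of 18 bases at chr1:55088059-55088076. The run is made of overlapping matches of this form and so of more than 3 units. The other Hspd1 window, at chr1:55088194-55088493, held neither form. The shared run is shown here on the strand of each gene.
Hspd1: TTCCGGAAGGTTCTAGAA
Hspe1: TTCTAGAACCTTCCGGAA
The Hsph1 promoter held such a 3-unit run of 13 bases past its start (chr5:149636288-149636300, minus strand) and a separate 2-unit match before it (chr5:149636362-149636369, minus strand, 33 bases before the first and 54 before the second of its annotated starts). They are shown with the single 2-unit match of Bag3.
Hsph1, 3 units: TTCTGGAAAGTTC
Hsph1, 2 units: TTCTCGAA
Bag3, 2 units: GAAGTTTC
Windows were at hand for 7 of the 10 genes. The 2-unit form was present for 6 of them (not for Dnajb1), against 15.1% of all 32851 windows, and the 3-unit form for 3 (Hsph1, Hspd1 and Hspe1), against 0.603% of all windows. The members are counted by gene, and Hsph1, Dnajb1 and Hspd1 have 2 windows each, so these shares are not on the same footing. The matches of Hspd1 and Hspe1 are the same bases, and those of Hspa1a and Hspa1b lie in nearly identical windows. A match describes these letters and is not a measured binding site.

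The 6 libraries held 11040 barcodes and 58954323 UMIs (unique molecule counts), 6057994 to 14838057 per library. Filtering left 3417 nuclei, with a median depth of 3810 UMIs per nucleus in Dexamethasone, 1625 to 3480 in Stress and 1803.5 to 2109 in Control. The file headers name Cell Ranger 5.0.1 for Dexamethasone and 4.0.0 for the other libraries, so that software version, library and treatment cannot be told apart in any comparison with Dexamethasone. Of 3414 distinct barcodes of kept nuclei, 3 occurred in more than 1 library. Nuclei fell into 24 clusters named from marker genes; 881 were glia-like, 499 neuron-like and 967 epithelium-like, so the sorted material went beyond the labelled enteric nervous system. Levels below are UMIs of a gene summed over the nuclei of 1 class in 1 library and scaled to 1000000 UMIs (CPM). Glia-like sums held 310277 to 873097 UMIs per library and neuron-like sums 223220 to 1329449.

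The members differed in which colon classes held their highest levels over the 6 libraries. The order covers the 7 named classes with at least 20000 UMIs in every library (those of glia, neurons, fibroblasts, lymphatic endothelium, epithelium, cycling cells and smooth muscle), and the shallower macrophage-like, vascular endothelium-like and enteroendocrine-like classes were not ranked. Hspa8, the constitutive Hsp70, had its highest median of these 7 classes in neuron-like nuclei (213 CPM, range 115 to 338) and its lowest in epithelium-like nuclei (70.5 CPM). Hsp90ab1, the constitutive cytosolic Hsp90, likewise had its highest median in neuron-like nuclei (411 CPM, range 252 to 609) and its lowest in smooth muscle-like nuclei (85.0 CPM). Of the 7 classes, neuron-like nuclei carried the highest median of both Hspa8 and Hsp90ab1, although the ranges of neighbouring classes overlapped.

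Bag3, the co-chaperone that releases nucleotide from Hsp70 and leads clients to autophagy, had another order. Its median was 211 CPM in lymphatic endothelium-like, 142 CPM in fibroblast-like, 134 CPM in glia-like and 66.5 CPM in neuron-like nuclei. Bag3 was higher in glia-like than in neuron-like nuclei in 6 of 6 libraries. The inducible Hspa1a and Hspa1b were near the limit of counting in the classes of the nervous system: in neuron-like nuclei they had 14 and 11 UMIs over all libraries, and in glia-like nuclei Hspa1a had 39. Counts were also low in smooth muscle-like (12 and 11 UMIs), epithelium-like (9 and 31) and cycling cell-like nuclei (10 and 34). The highest medians of Hspa1a and Hspa1b were in lymphatic endothelium-like nuclei (42.3 and 115 CPM), next to 42.0 and 112 CPM in fibroblast-like nuclei. The lymphatic value was above the fibroblast value in 3 and 4 of 6 libraries. Of the lymphatic UMIs, 57 of 67 for Hspa1a and 105 of 127 for Hspa1b came from the Dexamethasone library.

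The other members were spread over further classes of these 7. Hsp90aa1, the more inducible Hsp90 isoform, had its highest median in cycling cell-like nuclei (260 CPM) and its lowest of the 7 in glia-like nuclei (46.2 CPM). Hspd1 and Hspe1, the large and small subunits of the mitochondrial chaperonin, were also highest in cycling cell-like nuclei, at 82.1 and 78.4 CPM. Dnajb1, the J-domain partner of inducible Hsp70, was highest in epithelium-like nuclei at 29.3 CPM, next to 28.5 CPM in glia-like nuclei. Hsph1, an Hsp110 exchange factor, was highest in fibroblast-like nuclei at 60.9 CPM. For every member the ranges of the classes next to each other in this order overlapped.

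**Figure D1:**
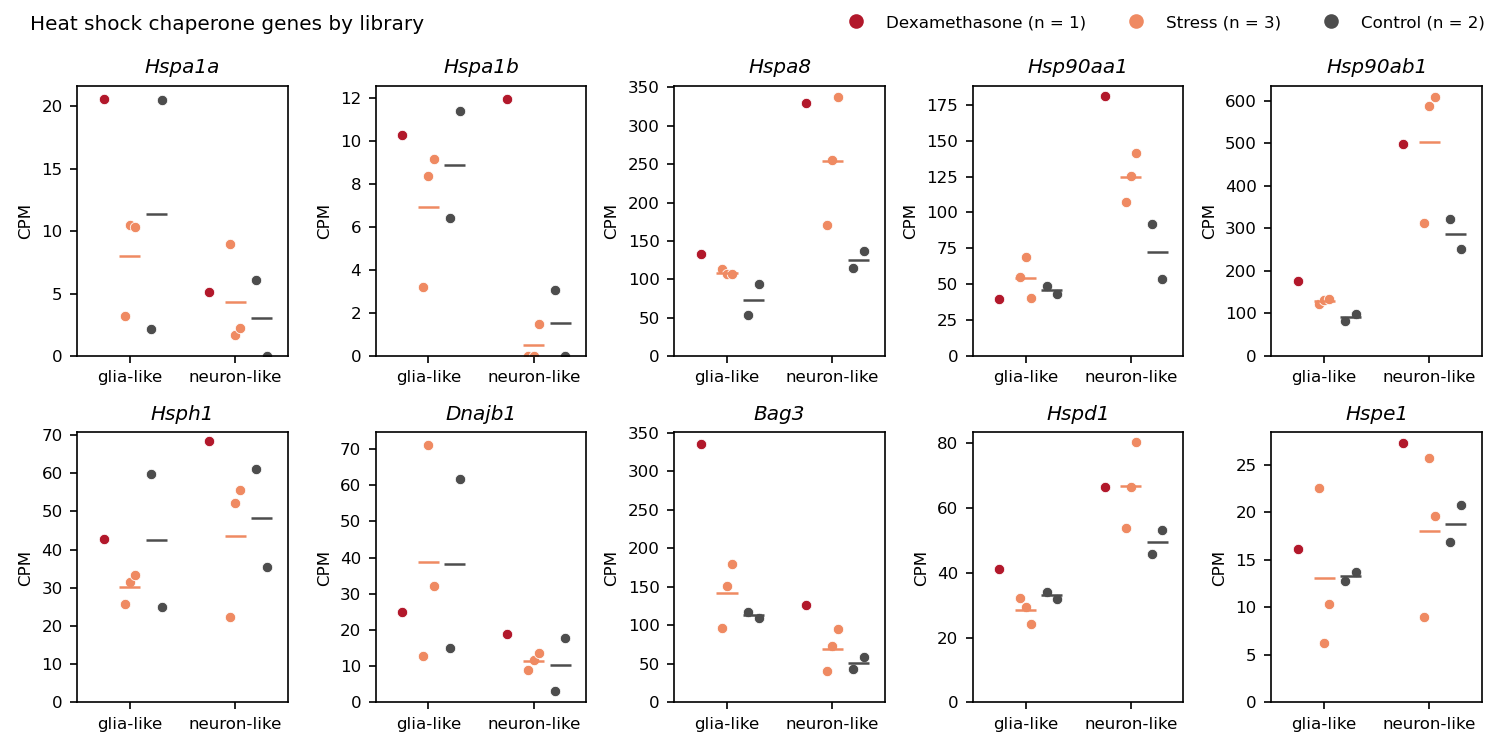
Levels in CPM of each of the 10 genes in glia-like and neuron-like nuclei, 1 point per library, with Dexamethasone, Stress and Control side by side. Bag3 in glia-like nuclei stands at 335 CPM in Dexamethasone, above 96.7 to 180 CPM in Stress and 110 to 117 CPM in Control, and Hspa8 in neuron-like nuclei is higher in every Stress library than in both Control libraries.

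Bag3 and Hsp90ab1 rose in glia-like nuclei with dexamethasone. Bag3 stood at 335 CPM in Dexamethasone (228 UMIs), at 96.7, 151 and 180 CPM in Stress 1, 2 and 3, and at 117 and 110 CPM in Control 1 and 2. The Dexamethasone library lay above all 5 others, and the Stress and Control ranges overlapped. Bag3 was 3.14-fold higher in Dexamethasone than in Control (log2 difference 1.65 ± 0.31 SE, n = 1 against 2, adjusted p = 0.00216 by edgeR's quasi-likelihood test) and 2.51-fold higher than in Stress (log2 difference 1.33 ± 0.27 SE, n = 1 against 3, adjusted p = 0.0103 by edgeR). The single Dexamethasone library gives no spread of its own and is assumed to vary like the others.

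Hsp90ab1 stood at 177 CPM in Dexamethasone glia-like nuclei, against 83.2 and 98.1 CPM in Control, with Stress between them at 123, 132 and 133 CPM. The groups did not overlap. The rise over Control was 2.07-fold (log2 difference 1.05 ± 0.29 SE, adjusted p = 0.0331 by edgeR), and the difference from Stress was 0.58 on the log2 scale (adjusted p = 0.31 by edgeR). The call over Control was lost by DESeq2 (adjusted p = 0.229), without the filter on low counts (0.0846), with counts thinned to 1 common total (0.219), under the tighter filter on nuclei (0.513), without the mitochondrial limit (0.0912), and when either Control library was left out (0.132 and 0.0718). That of Bag3 held under all these.

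Of the 10 members, 8 passed the filter on low counts in this comparison and 2 were called, both higher, where 6.09% of the 7699 genes tested were called and 5.44% were called higher. At an unadjusted p under 0.05 there were 3 members, against 18.6% of genes. Dexamethasone was above both Control libraries for 5 of the 8, against 33.0% of genes. Hspa8 had 132 CPM in Dexamethasone, against 53.3 and 93.6 CPM in Control, without passing (log2 difference 0.95 ± 0.33, adjusted p = 0.107 by edgeR); without Control 2 its adjusted p was 0.0468. The other 5 ranged between log2 differences of -0.50 for Dnajb1 and 0.40 for Hspd1. The median of the tested members was 0.39, against -0.05 over all genes tested. Against Stress, Bag3 was the 1 call among 8 members tested, where 3.14% of genes were called, and 2 members had an unadjusted p under 0.05, against 13.6% of genes.

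Among the 3 glial clusters, Bag3 was called in cluster 0. This cluster, whose leading genes include the stimulus-responsive Nr4a2, Nr4a3, Tiparp and Crem, held 82 of the 114 glia-like nuclei in Dexamethasone, 34 of 124, 65 of 118 and 119 of 184 in Stress, and 48 of 203 and 27 of 138 in Control. In cluster 0, Bag3 stood at 431 CPM in Dexamethasone, 161, 152 and 211 CPM in Stress, and 139 and 276 CPM in Control. Dexamethasone was above every other library there, by 2.37-fold over Control (adjusted p = 0.0473 by edgeR, where 6.02% of genes were called) and by 2.71-fold over Stress (adjusted p = 0.00867, 3.53% of genes called). Without Control 1 the adjusted p against Control was 0.339 and by DESeq2 it was 0.253. In cluster 1 Bag3 had 55.6 CPM in Dexamethasone, 58.5, 137 and 88.5 CPM in Stress, and 109 and 49.8 CPM in Control, so that Dexamethasone lay within the range of Control (6 UMIs, adjusted p = 0.822). In cluster 10 it had 60.2 CPM in Dexamethasone from 4 UMIs, against 91.9 and 96.2 CPM in Control. The difference of the Bag3 change between clusters was not tested.

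Hsp90ab1 was higher in Dexamethasone than in both Control libraries in each of the 3 glial clusters. In cluster 0 it had 142 CPM in Dexamethasone, against 57.0 and 38.1 CPM in Control (3.18-fold, adjusted p = 0.0339 by edgeR; 0.258 by DESeq2, 0.112 without Control 1 and 0.161 without Control 2). In cluster 1 it had 269 CPM, against 85.8 and 107 CPM (2.56-fold, adjusted p = 0.19, where 1.33% of genes were called). In cluster 10 it had 286 CPM, against 147 and 173 CPM.

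The number of nuclei with Bag3 differed too. A Bag3 UMI was found in 67.5% of glia-like nuclei in Dexamethasone, in 21.0%, 37.3% and 44.0% in Stress, and in 20.7% and 22.5% in Control, at median depths of 5556 UMIs, of 1696, 3810 and 4478 UMIs, and of 2124 and 3112 UMIs per nucleus in the same libraries. With each nucleus thinned to 1000 UMIs the shares were 26.6% in Dexamethasone, 7.14%, 20.2% and 15.2% in Stress, and 10.9% and 6.67% in Control. Dexamethasone was highest before and after thinning. The exact 95% binomial interval, which covers the counting of nuclei in 1 library only, was 58.1% to 76% in Dexamethasone before thinning, against 36.7% to 51.5% in Stress 3. After thinning it was 18.6% to 35.9% in Dexamethasone (29 of 109 nuclei), against 13.2% to 28.7% in Stress 2 (23 of 114), so that these overlapped, and 6.7% to 16.5% and 3.09% to 12.3% in Control. In smooth muscle-like nuclei, a comparison class of low Bag3, the thinned share was 0% in Dexamethasone, 1.96%, 2.56% and 7.04% in Stress, and 5% and 0% in Control. In neuron-like nuclei it was 14.7% in Dexamethasone (5 of 34), 0% to 8.70% in Stress, and 2.33% and 7.55% in Control. In lymphatic endothelium-like nuclei it was 28.6%, 15.4% to 23.1%, and 9.09% and 16.7%. Dexamethasone was thus highest in these 2 classes too, and not in epithelium-like, fibroblast-like or cycling cell-like nuclei. The Bag3 signal was not carried by a few nuclei: its 590 glial UMIs lay in 301 of 881 nuclei, with at most 10 in 1 nucleus.

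Markers of other cells were also higher in Dexamethasone glia-like nuclei. The 10 smooth muscle markers summed to 430 CPM in Dexamethasone, 80.6 to 205 CPM in Stress, and 49.1 to 57.0 CPM in Control, and none of the 10 was at 0. Lymphatic markers summed to 216 CPM in Dexamethasone, 90.2 to 149 CPM in Stress, and 53.3 to 59.3 CPM in Control. Bag3 in smooth muscle-like nuclei of Dexamethasone was itself 56.2 CPM, lower than in the glia-like nuclei, and in lymphatic endothelium-like nuclei it was 342 CPM. The part of these markers, and of depth and cluster makeup, in the Bag3 and Hsp90ab1 results was not tested.

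**Figure D2:**
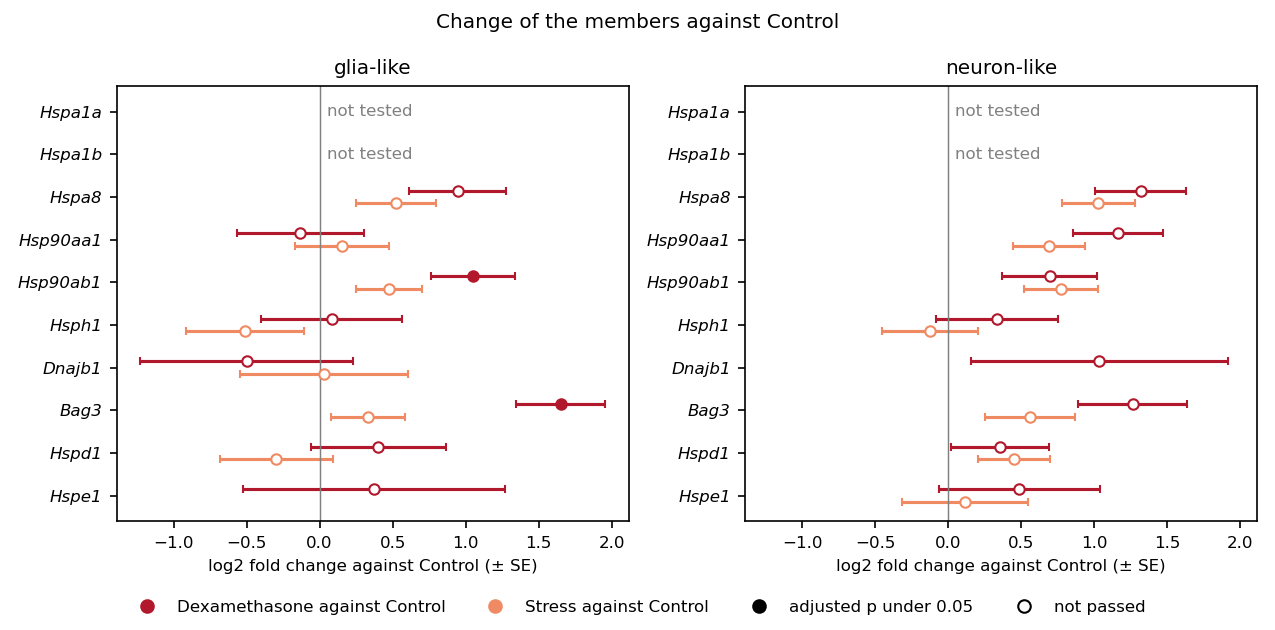
Log2 differences of the tested members, with error bars of 1 SE from edgeR's quasi-likelihood fit, for Dexamethasone against Control and Stress against Control in glia-like and neuron-like nuclei. Filled points passed an adjusted p of 0.05; they are Bag3 at 1.65 and Hsp90ab1 at 1.05 in glia-like nuclei with dexamethasone.

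With restraint, no member passed in glia-like nuclei. Hspa8 stood at 113, 107 and 107 CPM in Stress, against 53.3 and 93.6 CPM in Control. Hsp90ab1 stood at 123, 132 and 133 CPM in Stress, against 83.2 and 98.1 CPM in Control. For these 2 members every Stress library was above both Control libraries, an order that 17.0% of the 6545 genes tested also showed. Hspa8 differed by 0.52 ± 0.27 (adjusted p = 0.446 by edgeR) and Hsp90ab1 by 0.47 ± 0.22 (adjusted p = 0.386 by edgeR) on the log2 scale (SE, n = 3 against 2).

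Bag3 averaged 142 ± 42.2 CPM in Stress and 113 ± 5.52 CPM in Control (SD, n = 3 and 2), with overlapping libraries (log2 difference 0.33 ± 0.26, adjusted p = 0.637 by edgeR). Dnajb1 had 12.9, 71.2 and 32.1 CPM in Stress, against 14.9 and 61.6 CPM in Control, so that libraries of the same group differed more than the groups did. Hsph1 had 25.8, 31.4 and 33.2 CPM in Stress, against 59.7 and 25.1 CPM in Control, and the groups overlapped. Of 7 members tested, 0 were called by edgeR, 0 had an unadjusted p under 0.05 and 0 were called by DESeq2, where 2.09% of all genes were called by edgeR and 13.1% had such an unadjusted p. The members left untested for low counts were Hspa1a, Hspa1b and Hspe1. Hspa1a had 3.22, 10.5 and 10.3 CPM in Stress, against 2.13 and 20.5 CPM in Control, and the groups overlapped.

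In neuron-like nuclei Hspa8 and Hsp90aa1 were higher in every treated library than in both Control libraries, and no member passed over the whole class. Hspa8 stood at 330 CPM in Dexamethasone, 170, 256 and 338 CPM in Stress, and 115 and 136 CPM in Control. Every treated library was above both Control libraries. The log2 difference was 1.32 ± 0.31 for Dexamethasone (adjusted p = 0.158 by edgeR) and 1.03 ± 0.25 for Stress (adjusted p = 0.268 by edgeR). For both comparisons 0 genes were called, 0.0% of 9078 and of 7821 tested.

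Hsp90aa1 followed the same order, at 181 CPM in Dexamethasone, 108, 125 and 141 CPM in Stress, and 91.8 and 53.3 CPM in Control. Its log2 difference was 1.17 ± 0.31 for Dexamethasone (adjusted p = 0.208 by edgeR) and 0.69 ± 0.24 for Stress (adjusted p = 0.456 by edgeR). Hsp90ab1 had 499 CPM in Dexamethasone, 314, 588 and 609 CPM in Stress, and 323 and 252 CPM in Control. Stress 1 lay below Control 1 for this gene, so the Stress and Control libraries overlapped (log2 differences 0.69 ± 0.33 for Dexamethasone and 0.77 ± 0.25 for Stress, adjusted p = 0.501 and 0.408 by edgeR). Bag3 had 126 CPM in Dexamethasone, 40.3, 73.8 and 94.8 CPM in Stress, and 42.8 and 59.2 CPM in Control. Only Dexamethasone stood clear of Control (log2 difference 1.26 ± 0.37, adjusted p = 0.265 by edgeR).

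Of the members tested in neuron-like nuclei, 3 of 8 for Dexamethasone and 3 of 7 for Stress had an unadjusted p under 0.05, against 10.1% and 9.55% of all genes. DESeq2 called 0 members in both, among 11 genes called for Dexamethasone and 8 for Stress. Both Control libraries lay below Dexamethasone for 8 of 8 members tested, against 42.2% of genes, and below every Stress library for 3 of 7, against 16.4% of genes. The median log2 difference of the tested members was 0.86 for Dexamethasone and 0.56 for Stress, against 0.01 for Stress and a value within 0.01 of 0 for Dexamethasone over all genes. For the fits without the filter on low counts, which follow, the share of all genes called was not counted. Without the filter on low counts, Hspa8 passed in both (adjusted p = 0.0022 for Dexamethasone and 0.00329 for Stress by edgeR), as did Hsp90aa1 for Dexamethasone (0.0381) and Hsp90ab1 for Stress (0.047). Dexamethasone against Stress gave 0 calls of 8 members by edgeR and DESeq2 in neuron-like nuclei, with 1 at an unadjusted p under 0.05, where 0.0991% of genes were called and 6.23% had such a p.

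The neuron-like class was made up differently in the libraries. Dexamethasone had 42 of its 69 neuron-like nuclei in cluster 16, led by Nmu, against 2 to 12 nuclei in each other library, and the median depth of its neuron-like nuclei was 993 UMIs, against 3205 to 9270 UMIs in Stress and 2428 and 4566 UMIs in Control. Cluster 16 also had the highest median of Hspa8 among the neuron-like clusters, at 777 CPM in Dexamethasone, 266, 437 and 489 CPM in Stress, and 149 and 178 CPM in Control. Neuron-like nuclei of Dexamethasone also had a median of 2.12% mitochondrially encoded UMIs, against 0.268% to 0.468% in Stress and 0.446% and 0.479% in Control. Their 10 smooth muscle markers, none at 0, summed to 689 CPM in Dexamethasone, 94.1 to 217 CPM in Stress, and 82.9 and 104 CPM in Control. The part of cluster makeup, depth and these values in the neuronal differences was not tested over the whole class. Cluster 6, led by Nos1 and Vip, had 13 nuclei in Dexamethasone, 15, 39 and 50 in Stress, and 64 and 26 in Control.

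Hspa8 rose in cluster 6 with both treatments. It stood at 299.7 CPM in Dexamethasone, 213, 225 and 264 CPM in Stress, and 102 and 71.6 CPM in Control. The treated libraries did not overlap with Control. The rise was 3.03-fold in Dexamethasone (log2 difference 1.60 ± 0.33, adjusted p = 0.0202 by edgeR, where 1.2% of 6567 genes were called) and 2.56-fold in Stress (log2 difference 1.35 ± 0.27, adjusted p = 0.0313 by edgeR, where 0.426% of 5402 genes were called). The Stress call was lost by DESeq2 (adjusted p = 0.0761) and without Control 1, Control 2, Stress 1 or Stress 3 (0.0809, 0.169, 0.066 and 0.189). The Dexamethasone call was lost by DESeq2 (0.0688) and without Control 1 or Control 2 (0.0738 and 0.0568). Both comparisons share the Control libraries, and the fits of single neuron-like clusters were chosen after the data were seen.

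In cluster 9, led by Grik1 and Sst, Hspa8 had 59.6, 134 and 323 CPM in Stress, against 88.5 and 196 CPM in Control, and the groups overlapped. None of the members passed for Stress there by edgeR or DESeq2, as 0.0% of 3624 genes did, and 0 members had an unadjusted p under 0.05, against 4.0% of genes. Hspa8 counts were uneven between nuclei: 1 neuron-like nucleus held 64 of the 1109 Hspa8 UMIs. With nuclei thinned to 1000 UMIs, 35 of the 69 Dexamethasone neuron-like nuclei were too shallow and left out, as were 4 to 20 in each other library. An Hspa8 UMI was then found in 10 of 34 nuclei in Dexamethasone (29.4%, exact 95% binomial interval 15.1% to 47.5%), 19.2%, 18.0% and 25.0% in Stress, and 11.6% and 17.0% in Control (6.66% to 18.5% and 8.07% to 29.8%). The intervals of Dexamethasone and Control overlapped.

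The Stress differences of the 2 classes were compared directly. All 8 members tested had a larger log2 difference in neuron-like than in glia-like nuclei, by 0.13 (Dnajb1) to 0.79 (Hspd1). None passed by edgeR (0 of 8, 0 at an unadjusted p under 0.05, 0 by DESeq2), where 0.0243% of 8218 genes were called and 7.79% had an unadjusted p under 0.05. The response of the 2 classes was thus not shown to differ for any member.

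**Figure D3:**
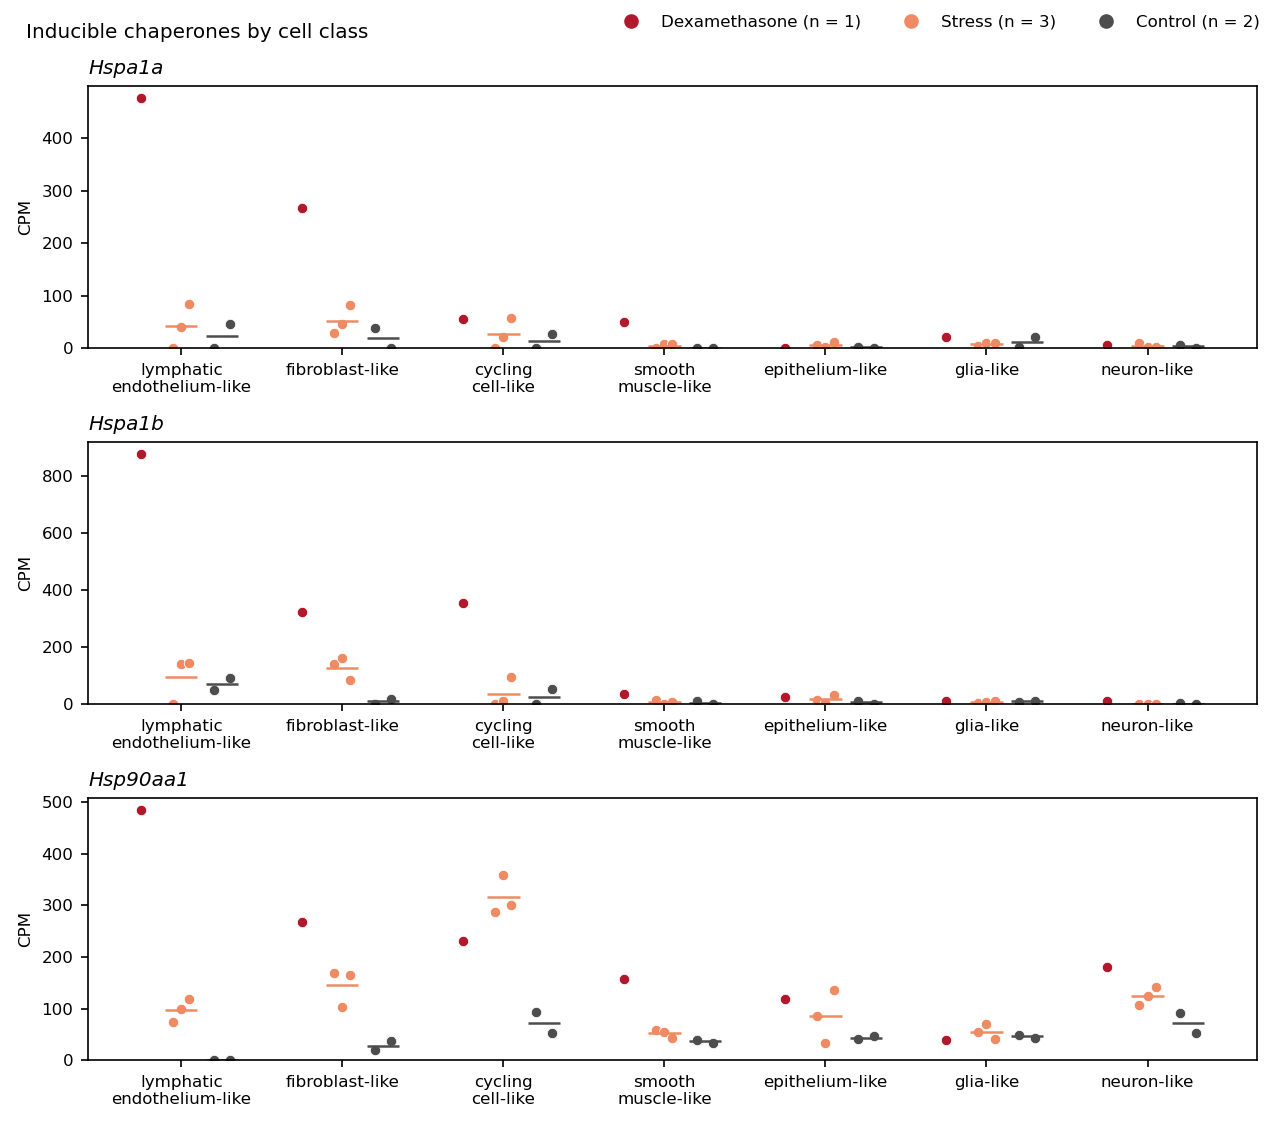
Levels in CPM of Hspa1a, Hspa1b and Hsp90aa1 in the 7 ranked classes, 1 point per library, with Dexamethasone, Stress and Control side by side. The Dexamethasone library reaches 877 CPM for Hspa1b and 476 CPM for Hspa1a in lymphatic endothelium-like nuclei, while both stay at or under 12.0 CPM in its neuron-like nuclei.

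In lymphatic endothelium-like and fibroblast-like nuclei, Hspa1a and Hspa1b were higher in Dexamethasone than in every other library. In lymphatic endothelium-like nuclei, Hspa1b stood at 877 CPM in Dexamethasone (105 UMIs in 45 nuclei), 0, 139 and 143 CPM in Stress (0, 7 and 12 UMIs), and 49.7 and 89.9 CPM in Control (1 and 2 UMIs). Hspa1a stood at 476 CPM in Dexamethasone, 0, 39.7 and 83.5 CPM in Stress, and 0 and 45.0 CPM in Control. The Dexamethasone library was above all 5 others for both, and Stress and Control overlapped. The ratio of Dexamethasone to Control was 12.4 for Hspa1b (exact 95% interval 4.12 to 61.0) and 20.2 for Hspa1a (3.48 to 810.4). The intervals cover counting error only and take each UMI as a separate count. Over all libraries, 10 nuclei of this class held 86.6% of its 67 Hspa1a UMIs (up to 14 in 1 nucleus). For Hspa1b 10 nuclei held 63.8% of 127 UMIs. Its ratio of Dexamethasone to Control was 18.2 (4.56 to 158) in cycling cell-like nuclei, from 26 and 2 UMIs with up to 20 in 1 nucleus. It was 5.93 in neuron-like, 5.51 in smooth muscle-like, 2.64 in epithelium-like and 1.17 in glia-like nuclei, from 4 to 7 Dexamethasone UMIs each. Over all kept nuclei Hspa1b stood at 95.5 CPM in Dexamethasone, 14.9, 9.12 and 17.1 CPM in Stress, and 7.35 and 9.73 CPM in Control.

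Hsp90aa1 had 484 CPM in Dexamethasone lymphatic endothelium-like nuclei, 73.4, 99.4 and 119 CPM in Stress, and 0 UMIs in both Control libraries. It was at least 6.84-fold higher in Dexamethasone than in Control, taking 3 counts over the Control group as the floor. Over all libraries, 10 nuclei of the class held 81.3% of its 75 UMIs, with up to 13 in 1 nucleus. In this class Hspa1a, Hspa1b and Hsp90aa1 reached the level of the filter on low counts, 257.8 CPM, in the Dexamethasone library alone, so that they entered the fit through the library in which they were high. The 2 calls over Control (0.425% of 1412 genes called by edgeR) and the 1 over Stress (0.567% called) therefore give no support beyond the counts themselves. For Stress against Control, 519 genes and no member passed the filter.

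Fibroblast-like nuclei showed a like order. Hspa1b had 323 CPM in Dexamethasone, 141, 160 and 82.9 CPM in Stress, and 0 and 18.4 CPM in Control. Hsp90aa1 had 267 CPM in Dexamethasone, 169, 103 and 166 CPM in Stress, and 19.1 and 36.8 CPM in Control. For both genes all 4 treated libraries were above both Control libraries. Over Control, Hspa1b rose with dexamethasone (log2 difference 4.91 ± 0.97, adjusted p = 0.00156 by edgeR, 2.29% of 2833 genes called) and so did Hsp90aa1 (log2 difference 3.20 ± 0.80, adjusted p = 0.0195 by edgeR). The filter on low counts was reached in Dexamethasone and 2 Stress libraries and in neither Control library, so that both genes entered the fit through treated libraries. The 2 calls over Control therefore give no support beyond the counts themselves. With a library left out, the log2 difference of Hspa1b was 4.01 to 7.78 and that of Hsp90aa1 2.79 to 3.77. The counts behind the Control values are 1 and 3 UMIs, and the counting ratios are 34.4 (exact 95% interval 5.71 to 1406) and 9.49 (2.88 to 49.3). These intervals too take each UMI as a separate count, while 10 nuclei held 60.3% of the Hspa1b and 59.1% of the Hsp90aa1 UMIs of the class. The Hspa1b call was lost by DESeq2 (0.197) and without Control 1 (0.074), and that of Hsp90aa1 by DESeq2 (0.464), without the mitochondrial limit (0.129) and without Control 1 or Control 2 (0.157 and 0.115).

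For Stress over Control in fibroblast-like nuclei, neither gene passed (adjusted p = 0.308 for Hspa1b and 0.312 for Hsp90aa1 by edgeR, where 1.45% of genes were called). In cycling cell-like nuclei Hsp90aa1 had 231 CPM in Dexamethasone, 288, 360 and 300.5 CPM in Stress, and 92.3 and 52.7 CPM in Control. All treated libraries lay above Control, without passing for Stress (log2 difference 1.94 ± 0.54, adjusted p = 0.0718 by edgeR, where 0.439% of genes were called). In epithelium-like, smooth muscle-like, fibroblast-like and cycling cell-like nuclei, edgeR and DESeq2 called 0 members for Stress, and 1, 0, 2 and 1 members of these classes had an unadjusted p under 0.05 by edgeR. The shares of all genes in these classes were 0.0%, 0.29%, 1.45% and 0.439% called and 4.17%, 11.8%, 11.6% and 9.27% with such a p.

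The share of nuclei with Hspa1b also differed. In lymphatic endothelium-like nuclei it was 46.7% in Dexamethasone (21 of 45), 0 of 20, 4 of 28 and 5 of 29 nuclei in Stress, and 1 of 18 and 2 of 17 in Control. The exact 95% binomial interval was 31.7% to 62.1% in Dexamethasone, 5.85% to 35.8% in Stress 3 and 1.46% to 36.4% in Control 2, so these overlapped at this number of nuclei. By the same exact interval, the 0 of 20 nuclei in Stress 1 allow up to 16.8% of nuclei with a UMI. This holds at their median depth of 1105 UMIs and is no limit on nuclei that express the gene. With nuclei thinned to 1000 UMIs it was 38.1% in Dexamethasone, 0%, 8% and 7.69% in Stress, and 9.09% and 8.33% in Control. In neuron-like nuclei, where 7 of 499 nuclei had an Hspa1b UMI, the thinned share was 2 of 34 nuclei in Dexamethasone (5.88%), with 35 too shallow and left out, and 0% in each Stress and Control library. The classes differed within the Dexamethasone library itself, at median depths of 2502 UMIs per lymphatic endothelium-like and 993 UMIs per neuron-like nucleus. All Dexamethasone results outside glia-like and neuron-like nuclei, and those in single clusters, were added after the data were seen and rest on 1 library.

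**Figure D4:**
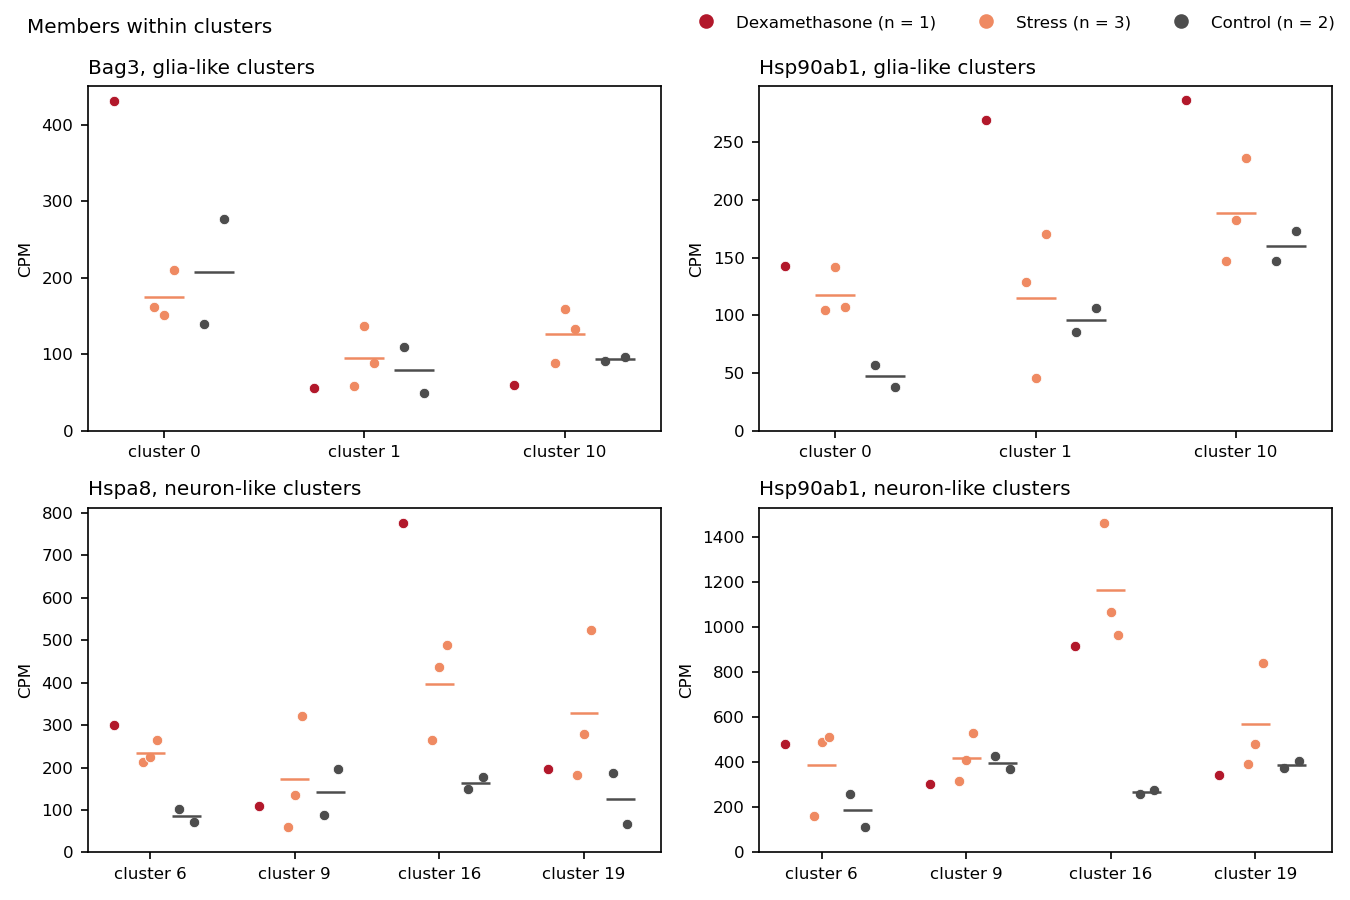
Levels in CPM of Bag3, Hsp90ab1 and Hspa8 in the single glia-like and neuron-like clusters, 1 point per library, with Dexamethasone, Stress and Control side by side. Bag3 reaches 431 CPM in glia-like cluster 0 of Dexamethasone, against 55.6 CPM in cluster 1 of the same library, and Hspa8 reaches 777 CPM in neuron-like cluster 16.

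The wider chaperone network was examined through 11 gene lists. In glia-like nuclei with dexamethasone, the other Hsp70 and Hsp110 genes had 1 of 5 tested higher (9 genes listed): Hspa13, an Hsp70-like protein of microsomes, at a log2 difference of 2.22 ± 0.58 (adjusted p = 0.0259 by edgeR). Among Hsp90 co-chaperones and steroid receptor partners, 1 of 9 tested rose and 1 fell. Fkbp5, the immunophilin that binds Hsp90 in the receptor complex and is induced by glucocorticoids, rose by 3.69 ± 0.49 (adjusted p = 1.16e-04 by edgeR), and Nr3c1, the glucocorticoid receptor itself, fell by 1.49 ± 0.41 (adjusted p = 0.0346 by edgeR). The median over the 9 was -0.23, against -0.05 for all genes.

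None passed by edgeR among 13 tested J-domain proteins, 5 nucleotide exchange and ubiquitin co-chaperones, 4 subunits of the cytosolic chaperonin TRiC, 2 small heat shock proteins, 7 mitochondrial chaperones and proteases, 18 endoplasmic reticulum chaperones and unfolded protein response genes, and 2 heat shock factors. Examples are Dnajb6 (log2 difference 1.06, adjusted p = 0.0949), Hspa9, the mitochondrial Hsp70 (1.12, 0.0557), Herpud1 (1.49, 0.102) and Hsf2 (-2.01, 0.0896). Glucocorticoid receptor targets had 8 of 15 tested higher and 0 lower, with a median of 1.77, among them the metallothioneins Mt2 (2.24, adjusted p = 2.12e-04) and Mt1 (2.19, 5.25e-04). Of 21 immediate early genes tested 2 rose (Fosl2 and Maff) and 2 fell (Jun and Atf3).

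With restraint, the 9 chaperone lists had 0 calls in glia-like nuclei by edgeR. Nearest were Hspa4, an Hsp110 exchange factor (log2 difference 1.02, adjusted p = 0.0565), and Fkbp5 (1.98 ± 0.50, adjusted p = 0.0595). Immediate early genes had 3 of 21 higher (Nr4a3, Maff and Fosl2) and 2 lower (Atf3 and Klf6), and glucocorticoid receptor targets 1 of 13 higher (Irs2, 1.16, adjusted p = 0.0142) and 1 lower (Pdk4, -2.14, adjusted p = 0.0209). In neuron-like nuclei no list had a call for either treatment, as no gene did. The TRiC subunits, which fold actin and tubulin, had a median of 0.53 for Dexamethasone and 0.69 for Stress over 7 tested, with Cct7 at 1.33 (adjusted p = 0.211) and 1.37 (adjusted p = 0.189).

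Genes with levels most like those of the members were sought over 45 sums, each of 1 class in 1 library, among 4270 genes. The points share libraries and depth, so the values describe these sums only. The mean of Hspa1a, Hspa1b, Hsph1, Dnajb1 and Bag3 was most like Osmr, a cytokine receptor subunit (Pearson r 0.68), Ackr3, a scavenging chemokine receptor (0.68), and Calu, a calcium-binding protein (0.66). The mean of Hspa8, Hsp90aa1 and Hsp90ab1 was most like Eef1a1 (0.72), Eef2 (0.65) and Eif4g1 (0.64), which all act in translation.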

How the data were processed

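The authors deposited UMI counts per gene and barcode, whole numbers, made with Cell Ranger, per the file headers (5.0.1 for Dexamethasone, 4.0.0 for Control and Stress); the submitters' processing notes name version 5 and mm10. The remaining deposited files hold other values, the gene and barcode names. No source used here says whether reads in introns were counted.

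Barcodes passed with 300 or more genes and no more than 5% of UMIs from mitochondrial genes, and 44 doublets were removed with scrublet, leaving 30.95% of barcodes. Clustering used scanpy 1.11.5 (2000 variable genes, 30 components, 15 neighbours, Leiden resolution 1.0). Cluster names came from 17 marker lists, by a mean marker log2 fold of at least 1.0, with at least 3 markers found in at least 10% of nuclei; clusters 13 and 22 stayed unnamed. UMIs were summed per class and library. The edgeR 4.0.16 quasi-likelihood F-test (filterByExpr, TMM, Benjamini-Hochberg over all genes tested, threshold 0.05) was fitted to Stress and Control for restraint and to all 6 libraries for Dexamethasone; the class comparison had the library as a block. DESeq2 1.42.0 was an alternative. The code was tested on simulated data. Other classes were fitted where each library had at least 10 nuclei. Members and lists were chosen with earlier results of these data known. All 10 members were named, with the genes of each list nearest to passing.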

Additional observations from a re-analysis of the deposited data

Results flagged for a closer look

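Hsp90ab1 differed in direction between classes under restraint. Every Stress library was higher than both Control libraries in fibroblast-like nuclei (log2 ratio of mean CPM 1.11), lymphatic endothelium-like nuclei (1.22) and glia-like nuclei (0.51), and every Stress library was lower in smooth muscle-like nuclei (-0.77). In smooth muscle-like nuclei it had 29.1, 89.7 and 80.2 CPM in Stress, against 125 and 101 CPM in Control (adjusted p = 0.597 by edgeR). An order with every Stress library higher was also shown by 18.5% of genes tested in fibroblast-like, 17.0% in lymphatic endothelium-like and 17.0% in glia-like nuclei. In smooth muscle-like nuclei 11.4% of genes had every Stress library lower. The lowest lymphatic endothelium-like value of Hsp90ab1, 49.7 CPM in Control 1, is 1 UMI. The gene was found by a search over all members and classes, and the difference between classes was not tested.

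Barcodes over the 5% mitochondrial limit, which the comparisons leave out, carried signals of the same genes. Hspa1a had 26.5 CPM there in Dexamethasone, against 2.6 and 4.2 CPM in Control, a ratio of 7.74, and the ratio of Hspa1b was 8.72. Stress to Control ratios of mean CPM were 2.12 for Hspa8, 2.49 for Hsp90aa1, 1.87 for Hsp90ab1 and 1.37 for Bag3. Dexamethasone to Control ratios were 2.1 for Bag3, 1.83 for Hspd1 and 1.96 for Hspe1. Stress ratios are given where every Stress library was above both Control libraries, and Dexamethasone ratios where that library was above every other. The remaining members were above both Control libraries in Dexamethasone, but below a Stress library. In Dexamethasone and mean Control, Hspa8 had 224 and 82.6 CPM, Hsp90aa1 112 and 32.5 CPM, and Hsp90ab1 277 and 152 CPM. Hsph1 had 50.7 and 16.4 CPM, and Dnajb1 27.4 and 20.1 CPM. These ratios have no test.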

How the results depend on the processing

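In glia-like nuclei the 2 members called for Dexamethasone over Control became 1 (Bag3) by DESeq2, without the filter on low counts, with counts thinned to 1 common total, under the tighter filter on nuclei and without the mitochondrial limit, and 1 to 2 with a library left out. Bag3 kept its call under every alternative run there (log2 difference 1.35 to 1.85) and over Stress (1.14 to 1.69). In neuron-like nuclei the 0 calls became 2 for Stress without the filter, and for Dexamethasone 2 without the filter, 1 with the replicate block (Hspa8, 1.49, adjusted p = 0.0174 by edgeR) and, in an alternative added after seeing the data, 3 with nuclei of over 10000 UMIs left out, which also gave 2 over Stress. Replicate numbers did not pair the libraries (correlations of deviations -0.122 to 0.0517). Outside DESeq2, the share of all genes called was not counted under the alternatives here and below.

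In the other classes the 4 calls for Dexamethasone over Control became 0 by DESeq2, 7 without the filter, 2 with the replicate block, 1 under the tighter filter and 1 without the mitochondrial limit (0 to 5 with a library left out). The 1 call over Stress became 0, 3, 2, 3 (Hspa1a and Hspa1b summed), 0 (no mitochondrial limit) and 2 (nuclei over 10000 UMIs left out), and 1 to 2 with a library left out. Stress over Control had 0 to 1. In single clusters, the 2 glial calls for Dexamethasone became 0 by DESeq2 (0 to 2 with a library left out), the 1 neuronal call for Stress 0 by DESeq2, 2 without the filter and 0 with the block (0 to 1), and the 1 for Dexamethasone 0, 2 and 3 (0 to 2).

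No member whose direction turned had been called in the main fit, and the cause was not tested. Hsp90ab1 passed the threshold after turning, for Dexamethasone over Stress in neuron-like nuclei with nuclei over 10000 UMIs left out (1.63). For Stress in glia-like nuclei the members that turned were Dnajb1 after thinning (-0.27) and Bag3 under the tighter filter (-0.10). For Dexamethasone over Control they were Hsp90aa1 under the tighter filter (0.30) and no mitochondrial limit (0.53), Hsph1 after thinning (-0.24) and with the block (-0.15), Dnajb1 with the block (0.93) and no limit (0.23), and Hspe1 with the block (-0.02) and no limit (-0.16). Over Stress they were Hsp90aa1 with no limit (0.20) and Dnajb1 after thinning (0.17) and with the block (0.89). In neuron-like nuclei for Stress they were Hsph1 after thinning (0.24) and with no limit (0.07), Bag3 with nuclei over 10000 UMIs left out (-0.02) and Hspe1 with the block (-0.08). For Dexamethasone over Stress they were Hspa8 (-0.17) and Bag3 (-0.38) under the tighter filter, Hsp90ab1 after thinning (0.03), with the block (0.19) and with nuclei over 10000 UMIs left out (1.63), and Hspd1 after thinning (0.11), with the block (0.19), with no limit (0.44) and with those nuclei left out (1.03). For the class difference they were, with those nuclei left out, Hspa8 (-0.29), Hsp90ab1 (-0.33), Hsph1 (-0.74), Dnajb1 (-0.49) and Bag3 (-0.42), then Hsph1 under the tighter filter (-0.25), Dnajb1 after thinning (-1.07) and with no limit (-0.60), and Bag3 after thinning (-0.28).

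With a library left out, the log2 differences of some members also turned. For Stress over Control in glia-like nuclei the range was -0.06 to 0.39 for Hsp90aa1, -0.99 to 0.26 for Hsph1 and -0.66 to 1.35 for Dnajb1. For Dexamethasone over Control in glia-like nuclei the range was -0.41 to 0.86 for Hsph1 and -1.19 to 0.81 for Dnajb1. For Dexamethasone over Stress in glia-like nuclei the range was -0.83 to 0.12 for Dnajb1. For Stress over Control in neuron-like nuclei the range was -0.40 to 0.39 for Hsph1 and -0.07 to 0.22 for Hspe1. For Dexamethasone over Control in neuron-like nuclei the range was -0.01 to 2.46 for Dnajb1. For Dexamethasone over Stress in neuron-like nuclei the range was -0.27 to 0.04 for Hsp90ab1 and -0.15 to 0.03 for Hspd1. For the difference of the Stress changes (neuron-like minus glia-like nuclei) the range was -0.42 to 0.84 for Dnajb1 and -0.08 to 0.43 for Bag3. Every fit with Dexamethasone takes the spread of its lone library from the other groups. Low counts kept Hspa1a and Hspa1b out of the test in glia-like and neuron-like nuclei.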
